A study of Homo sapiens with 8 samples.

Results

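The subject here is how the transcript response of HepG2 cells to benzo[a]pyrene (BaP) differed between 24 h and 12 h of exposure. It is measured, gene by gene, as the response at 24 h (BaP against vehicle) minus the response at 12 h. All 8 of the 8 libraries of the series enter this contrast, and of 49733 gene IDs in the deposited files 14746 had enough reads to be tested. HepG2 is an established human hepatocellular carcinoma line. At 80% confluence its medium was changed for medium with 2 µM BaP or with the vehicle alone, 0.5% DMSO, and poly-A RNA was taken after 12 h or 24 h. Groups are named by exposure and time, and the vehicle and BaP groups of 12 h and of 24 h make 4, with 2 libraries each from independent experiments, per the labels. The labels name DMSO as the vehicle of the BaP groups too, and each time has its own vehicle libraries.

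BaP is a polycyclic aromatic hydrocarbon that binds the aryl hydrocarbon receptor (AHR), a transcription factor that switches on CYP1A1 and other enzymes of xenobiotic metabolism. Those enzymes turn BaP into diol epoxides that form bulky adducts on DNA, and into quinones that cycle between redox states. Bulky adducts can stall RNA polymerase II on the transcribed strand and are removed by nucleotide excision repair, while damaged DNA activates p53 and electrophiles activate NRF2. A response can therefore be transient, sustained or late, and the difference contrast separates these courses.

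Estimated counts per library ranged from 2592272 (BaP 24 h replicate 1) to 16533490 (BaP 24 h replicate 2), and mitochondrial transcripts took 17.1% to 18.7%. Across 7299 well-expressed genes, replicates of a group differed with an SD (log2) of 0.323 for BaP 24 h and 0.169 to 0.245 for the other groups, so the 24 h response was the less precise one. Hepatocyte markers summed to 19700 to 34400 CPM (read counts scaled to library size) over the 8 libraries, with 25600 to 28000 in vehicle 12 h, 19700 to 21100 in BaP 12 h, 30100 to 34400 in vehicle 24 h and 22200 to 24800 in BaP 24 h. The sum was thus lower with BaP at both times, but 1 of the 10 markers passed as lower at 12 h and 1 at 24 h. The largest member was APOB, at 10235 and 12767 CPM in vehicle 12 h and 6142 and 6966 in BaP 12 h. It stood at 12799 and 14498 in vehicle 24 h and 8526 and 7760 in BaP 24 h. HNF4A overlapped at 12 h (224 and 223 with vehicle, 213 and 252 with BaP). Of the markers of other cell types, DCN, LUM, KDR, TEK and CD3E were at 0 in all 8 libraries. Cholangiocyte markers were the highest of these lists, with sums of 610 to 879 CPM over the 8 libraries and 842 to 873 in BaP 24 h. Most of that sum was KRT19 (286 to 547 CPM) and SOX9 (258 to 345). Fibroblast markers summed to 124 to 127 CPM and leukocyte markers to 60 to 62.9 in BaP 24 h, above the 66.5 to 108 and 39.1 to 50.3 of the other groups. Most of the fibroblast sum in BaP 24 h was ACTA2, an actin gene (95.7 and 98.6 CPM, at most 50.4 elsewhere), while COL1A1, a collagen gene, was lowest in BaP 24 h (6.75 and 5.15). The leukocyte sum was mostly CD68, a lysosomal protein (51.8 and 56.1 CPM in BaP 24 h), with PTPRC, the defining CD45 gene, at 0 in both BaP 24 h libraries and at most 0.188 elsewhere. The part of these shifts in the results was not tested. Log2 values below are fitted fold changes ± SE with n = 2 libraries per group. Adjusted p values were obtained with the quasi-likelihood test of edgeR and Benjamini-Hochberg adjustment over all genes tested, and "passed" means an adjusted p under 0.05.

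Most of the genes whose response differed between the times had been depressed by BaP at 12 h and stood closer to vehicle at 24 h. The difference passed in 80 genes (0.543% of those tested), of which 68 were higher (0.461%) and 12 lower (0.0814%) at 24 h than at 12 h. At an unadjusted p under 0.05 there were 1403. Of the 68, 62 had passed as lower than vehicle at 12 h (4.84% of all genes did), 13 passed as lower at 24 h (2.2%) and 7 as higher at 24 h (3.11%). Of the 12, 11 had passed as higher than vehicle at 12 h (3.41% of all genes did). The passing changes over time lay mainly in the BaP arm. Of the 68, 67 rose between 12 h and 24 h in BaP-exposed cells (10.1% of all genes did). For 63 of them the change in vehicle cells did not pass, which does not show that it was absent. Of the 12 with a lower difference, 11 fell in BaP-exposed cells (7.34% of all genes did). In vehicle cells 4 of the 68 rose (2.27% of all genes did) and 1 fell (1.01%), where 3.28% of all genes passed in either direction. In all 80 genes the difference kept its sign in each of the 16 choices of 1 library per group. Both BaP 12 h libraries lay below the other 6 libraries in 64 of the 68, and above them in 12 of the 12. Over all genes tested the same held for 10.2% and 10.4%. The 80 genes were chosen by this contrast on these same libraries. The difference is also the BaP change over time minus the vehicle change. The shares and kept signs of the 80 are therefore partly set by that choice, and they are descriptions and not support.

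The number of passing genes depended on the libraries. Leaving out a library or changing the method refits the same data, so it gives no independent support. Leaving out BaP 12 h replicate 1 gave 28 higher and 6 lower genes, and leaving out its replicate 2 gave 43 and 7. Leaving out vehicle 12 h replicate 1 gave 43 and 9. Of the vehicle 24 h libraries, omitting replicate 1 gave 24 and 4 and omitting replicate 2 gave 38 and 7. The counts were 249 and 99 when the shallow BaP 24 h replicate 1 was omitted, and 73 and 21 when BaP 24 h replicate 2 was. All 80 genes kept their direction in each of the 16 alternatives that gave them a value, and 20 passed in all 16.

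Genes were sorted into time courses by 3 tests, those at 12 h, at 24 h and of the difference. At 12 h 8.25% of genes tested passed and at 24 h 5.3%. A transient response passed at 12 h, did not pass at 24 h, and had a passing difference. It was seen in 48 genes that fell and 7 that rose. A fading response passed at both times and was smaller at 24 h by the test of the difference. It was seen in 13 genes that fell and 4 that rose. A late response passed only at 24 h with a passing difference, in 6 genes that rose and 1 that fell. No gene met the rule for a growing response, although 10 did without BaP 24 h replicate 1. A response was called sustained where it passed at both times and the 95% interval of the difference lay within 1 log2 unit of 0. That held for 125 genes that rose and 112 that fell. In 15 of these 237 genes the interval excluded 0, so a sustained response can include a shift of less than 1 log2 unit. Of the 12 h responses, 29.4% passed in the same direction at 24 h, and these made up 45.8% of the 24 h responses.

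**Figure D1:**
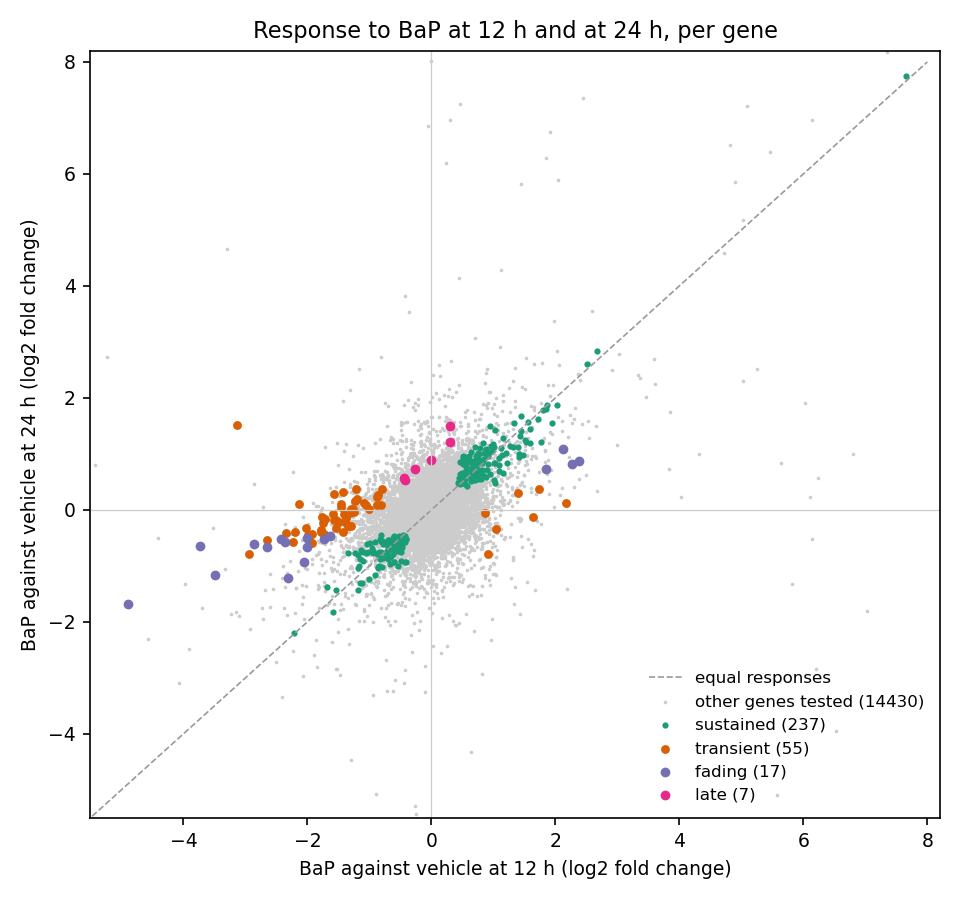
Log2 fold change of BaP against vehicle at 12 h (horizontal axis) and at 24 h (vertical axis), 1 point per gene, coloured by time course, with the number of genes in the key. The 55 transient and 17 fading genes lie off the dashed line of equal responses, most of them to the left, and 19 of the 14746 genes lie outside the axes.

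A response that passed at 12 h alone was rarely shown to differ from that at 24 h. In 802 genes the 12 h response passed, the 24 h response did not, and neither did the difference. A further 416 passed at 24 h alone without a passing difference. Only 6.42% of the genes that passed at 12 h alone, and 1.65% of those that passed at 24 h alone, had a passing difference, so for most genes these data do not settle the time course. Just inside the threshold lay ZDHHC14 (adjusted p = 0.0413) and TANGO6 (0.0458). Just outside it lay BABAM2 (0.0508), MAT1A (0.0519) and MYO5B (0.0567).

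Among the genes whose fall at 12 h was relieved by 24 h, signalling genes had some of the best-measured values. PRKCA encodes protein kinase C alpha, a kinase activated by calcium and diacylglycerol. It stood at 80.3 and 85.7 CPM in vehicle 12 h, 12.8 and 13.6 in BaP 12 h, 68.3 and 67.1 in vehicle 24 h, and 38.3 and 45.6 in BaP 24 h. The groups did not overlap at either time, and the BaP 24 h libraries lay between the BaP 12 h and the vehicle libraries. PRKCA was at 15.96% of vehicle at 12 h and 63.3% at 24 h, a difference of 1.99 ± 0.18 (adjusted p = 3.55e-05). PLCB1, a phospholipase C that makes diacylglycerol and inositol trisphosphate, stood at 49.9 and 55.6 CPM in vehicle 12 h and 10.7 and 10.2 in BaP 12 h. At 24 h it stood at 63.7 and 64.5 with vehicle and 53.3 and 45.1 with BaP. The 24 h response of PLCB1 did not pass (log2 -0.41 ± 0.13, adjusted p = 0.0849), and the difference did (1.93 ± 0.19, adjusted p = 6.42e-05). Both calls of the difference held in all 16 alternatives. PITPNC1, a phosphatidylinositol transfer protein, had a difference of 2.24 ± 0.35 (adjusted p = 0.00374), which did not pass with libraries thinned to the shallowest depth (0.103).

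SHANK2, a multidomain scaffold protein, stood at 59.9 and 63.2 CPM in vehicle 12 h, 7.67 and 9.16 in BaP 12 h, 61.6 and 72.6 in vehicle 24 h, and 45.0 and 42.8 in BaP 24 h. Both BaP 12 h libraries lay far below the other 6, and the BaP 24 h libraries remained below their vehicle. Its difference was 2.24 ± 0.20 (adjusted p = 3.22e-05). MAGI1, a scaffold of tight junctions, stood at 58.1 and 60.4 CPM in vehicle 12 h, 20.5 and 23.6 in BaP 12 h, 68.4 and 67.3 in vehicle 24 h, and 86.7 and 83.5 in BaP 24 h. The BaP libraries of MAGI1 were the lowest at 12 h and the highest at 24 h, but its 24 h response did not pass (0.32 ± 0.12, adjusted p = 0.136). The difference for MAGI1 was 1.74 ± 0.17 (adjusted p = 6.03e-05). PTPRG, a receptor-type tyrosine phosphatase, went from 19.5% of vehicle at 12 h to 66.9% at 24 h (1.78 ± 0.23, adjusted p = 0.00123). SHANK2, MAGI1 and PTPRG passed in all 16 alternatives, as did PARD3, a cell polarity scaffold, the phosphatase gene PTPRM and the plexin gene PLXNA2, which were singled out after their values were seen.

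SNX29 encodes a sorting nexin and had the largest difference among the named genes that passed in all 16 alternatives. It stood at 20.3 and 21.2 CPM in vehicle 12 h, 0.233 and 1.00 in BaP 12 h, 19.1 and 21.2 in vehicle 24 h, and 6.00 and 6.29 in BaP 24 h. SNX29 was thus lower with BaP in every library, at 3.37% of vehicle at 12 h and 31.1% at 24 h, with a difference of 3.21 ± 0.41 (adjusted p = 0.000912). Over the alternatives the difference ranged from 2.67 to 4.73. In BaP 12 h replicate 1 SNX29 lay below the level of 3 counts (0.363 CPM there), so its 12 h percentage is imprecise. The difference was 2.17 ± 0.46 for NBEA, an anchoring protein of vesicle traffic (adjusted p = 0.0392), and 1.79 ± 0.29 for SCFD2, a Sec1-family protein (0.00521). DIAPH2, a formin that nucleates actin, differed by 2.12 ± 0.38 (adjusted p = 0.0144). MICAL2, a monooxygenase that acts on actin, differed by 1.86 ± 0.39 (0.0359), and the vehicle level of MICAL2 changed as well (-1.03 from 12 h to 24 h, adjusted p = 0.0324). TTC28 (1.91 ± 0.21, adjusted p = 0.000243) and BTBD9 (2.32 ± 0.46, 0.0265) complete the named rises together with CERS6-AS1.

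These calls were not equally firm. SNX29 and TTC28 passed in all 16 alternatives, DIAPH2 and SCFD2 in 12, BTBD9 in 7, MICAL2 in 6 and NBEA in 5. DIAPH2 and SCFD2 lost the call when any of BaP 12 h replicate 1, BaP 24 h replicate 2 or vehicle 24 h replicate 1 was left out. BTBD9, MICAL2 and NBEA lost it when either BaP 12 h library, vehicle 12 h replicate 1 or either vehicle 24 h library was left out, among others. The antisense RNA gene CERS6-AS1 had the largest difference among the named rises (4.64 ± 0.73, adjusted p = 0.0206) at 0.116 and 1.46 CPM in BaP 12 h. The sources used here do not state whether counting used strand, so its reads cannot be told from those of an overlapping sense gene. Its call was lost when BaP 24 h replicate 2 or either vehicle 24 h library was left out.

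**Figure D2:**
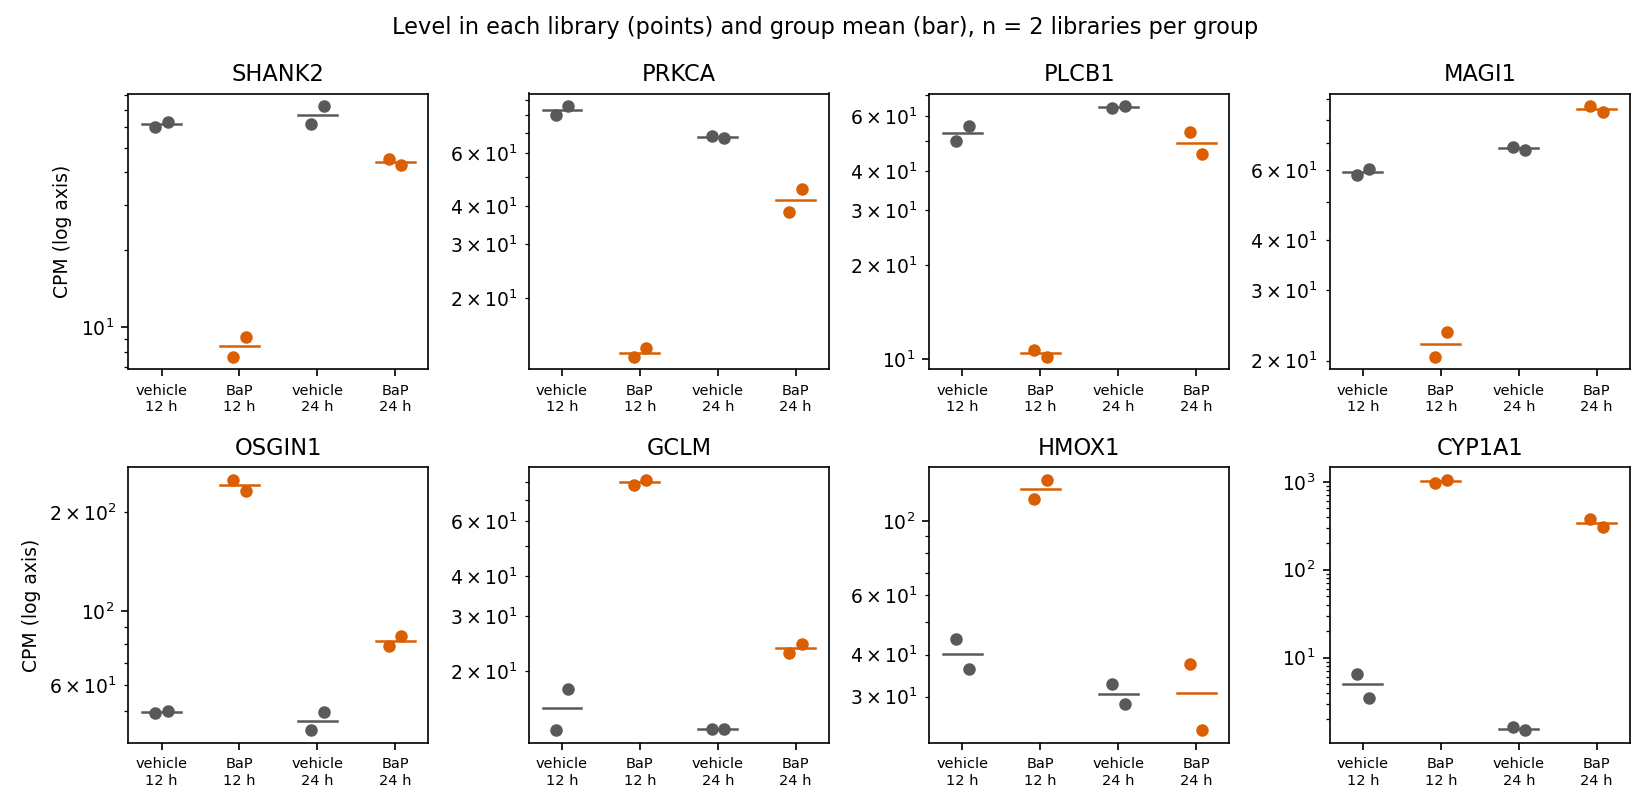
CPM (log axis, a separate scale for each gene) in each of the 8 libraries for 8 genes, with vehicle in grey, BaP in orange, a point per library and a bar at the mean of 2. SHANK2, PRKCA, PLCB1 and MAGI1 are lowest in BaP 12 h, OSGIN1, GCLM and HMOX1 are highest in BaP 12 h, and CYP1A1 is high with BaP at both times.

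What these genes shared was their length in the genome, which played no part in their choice. Of the 67 genes with a higher difference and a known genomic span (first to last base of the gene in GENCODE 29), 62 spanned over 100 kb and 46 over 300 kb, with a median of 454.1 kb. Among all 13765 genes tested with a known span, 2355 exceeded 100 kb and 395 exceeded 300 kb, with a median of 29.32 kb. All 13 genes with a fading fall exceeded 300 kb, and they had a median of 19.5% of the vehicle level at 12 h and 63.6% at 24 h. The 48 genes with a transient fall had a median span of 420 kb and medians of 35.9% and 91% of vehicle. The genes with a lower difference were short: none of the 10 with a known span exceeded 100 kb, and their median was 16.52 kb.

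The same pattern was seen when all genes tested with a known span were grouped by span, with passing genes included. The median difference was 0.012 in 6989 genes up to 30 kb, -0.022 in 4421 genes of 30 to 100 kb, and 0.028 in 1507 genes of 100 to 200 kb. It was 0.189 in 453 genes of 200 to 300 kb, 0.412 in 269 genes of 300 to 500 kb, and 0.484 in 126 genes over 500 kb. In the longest group the median response was -0.906 at 12 h and -0.331 at 24 h, so long genes were still lower with BaP at 24 h, by less. The share of genes with a passing higher difference was 0.0429% up to 30 kb, 2.43% at 200 to 300 kb, 6.32% at 300 to 500 kb and 23% over 500 kb. These are descriptions over genes, which are not replicates, and the longest genes had lower levels (median 7.21 CPM against 16.4 up to 30 kb).

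Each library showed it separately. Relative to each gene's mean over the 8 libraries, the median log2 level of genes over 500 kb was -0.703 and -0.612 in BaP 12 h. It was 0.245 and 0.33 in vehicle 12 h, 0.402 and 0.458 in vehicle 24 h, and 0.084 and 0.062 in BaP 24 h. The groups did not overlap, and BaP 24 h lay between BaP 12 h and both vehicle groups. Vehicle itself rose slightly with time in these genes (median 0.117), against 0.668 in BaP-exposed cells. Both BaP 12 h libraries were below the other 6 in 216 of the 395 genes over 300 kb (54.7%). Length of the mRNA was taken as the median over all annotated transcripts of a gene (659 bases for TTC28). It need not be the length of the main mRNA. By that measure, an equal number of genes with the longest mRNA had a median difference of -0.12. Genes were also split by mRNA length into 6 classes. The share with a passing higher difference was 0.695% in the shortest class and 0.741% in the longest, against 0.461% of all genes tested.

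**Figure D3:**
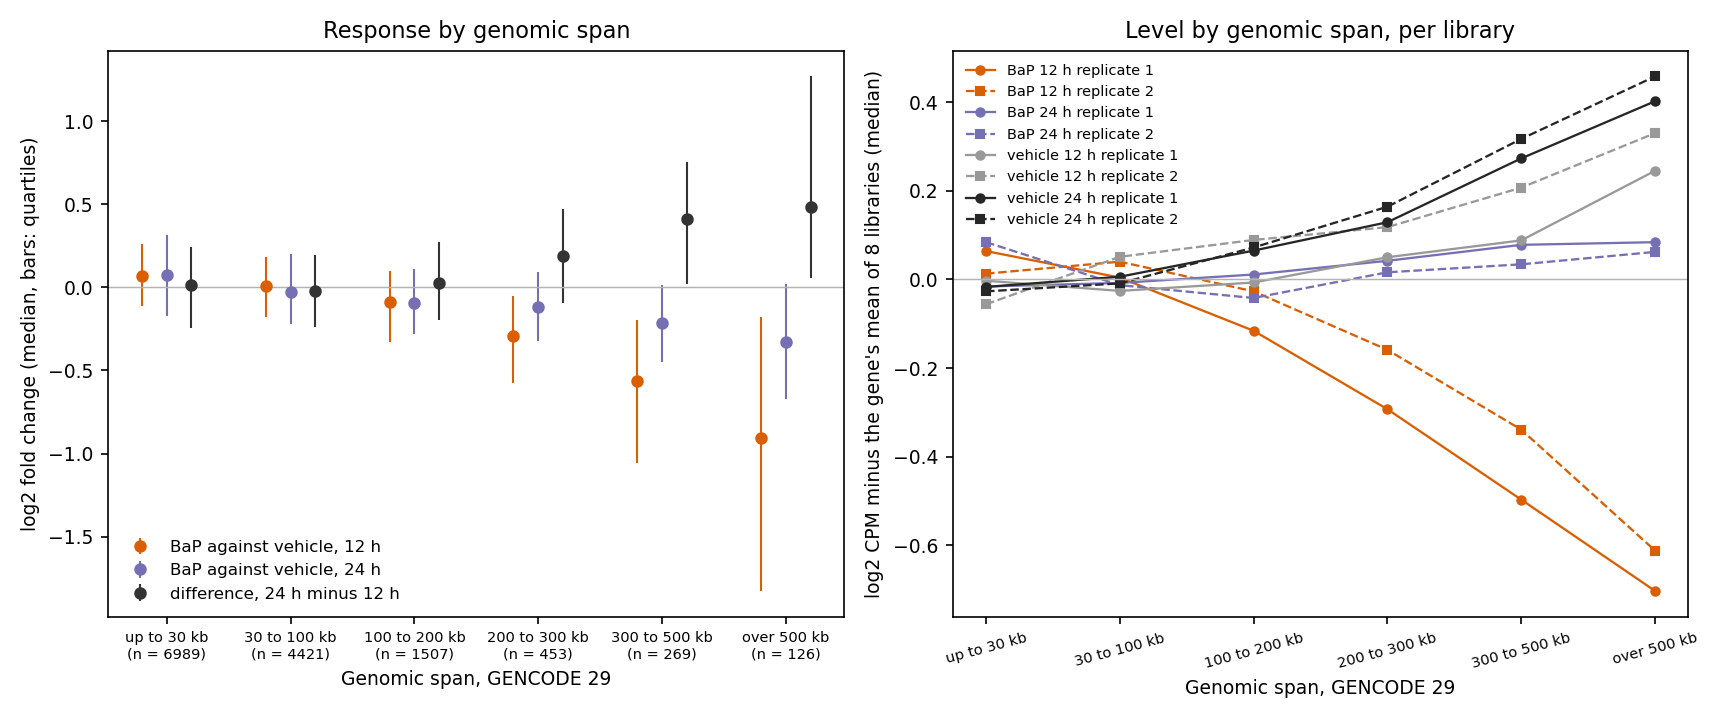
Left, median log2 fold change of BaP against vehicle at 12 h and 24 h and of their difference, with quartiles, in 6 classes of genomic span; right, median log2 level relative to each gene's mean, per library. Genes over 500 kb have medians of -0.906 at 12 h and -0.331 at 24 h, and the lines of both BaP 12 h libraries descend with span.

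Genes that rose early and came down by 24 h included several of the antioxidant program run by NRF2, which binds antioxidant response elements in promoters. OSGIN1, an oxidative stress-induced growth inhibitor, stood at 49.4 and 50.1 CPM in vehicle 12 h, 250 and 230 in BaP 12 h, 43.8 and 49.9 in vehicle 24 h, and 78.8 and 84.4 in BaP 24 h. BaP libraries exceeded vehicle at both times without overlap, by less at 24 h, with a difference of -1.46 ± 0.17 (adjusted p = 0.000277). OSGIN1 passed in all 16 alternatives. So did ENSG00000172070, an ID with no name found, in the 14 that gave it a value (-1.04 ± 0.16, adjusted p = 0.00394), and it was singled out after its values were seen. GCLM, the modifier subunit of the ligase that starts glutathione synthesis, stood at 12.99 and 17.6 CPM in vehicle 12 h, 78.1 and 81.3 in BaP 12 h, 13.1 and 13.1 in vehicle 24 h, and 22.9 and 24.4 in BaP 24 h. It was 520% of vehicle at 12 h and 183% at 24 h (-1.51 ± 0.23, adjusted p = 0.0031), and it missed the threshold when all libraries were thinned (0.0567). HMOX1, the heme oxygenase, stood at 44.4 and 36.1 CPM in vehicle 12 h, 116 and 133 in BaP 12 h, 32.6 and 28.5 in vehicle 24 h, and 37.5 and 23.8 in BaP 24 h. At 24 h the BaP and vehicle libraries of HMOX1 overlapped, and its difference was -1.75 ± 0.25 (adjusted p = 0.00394), which missed the threshold without vehicle 24 h replicate 1 (0.0573).

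Other early rises came from genes of different function. UNKL, a zinc finger gene related to unkempt, stood at 4.21 and 6.01 CPM in vehicle 12 h, 23.6 and 22.6 in BaP 12 h, 2.97 and 4.12 in vehicle 24 h, and 3.00 and 3.88 in BaP 24 h. Its 24 h groups overlapped, and the difference was -2.05 ± 0.36 (adjusted p = 0.0116). ABHD4, a hydrolase of N-acyl phospholipids, differed by -1.12 ± 0.17 (0.00333) and remained at 167% of vehicle at 24 h, from 361% at 12 h. GABARAPL1, an autophagy protein of the ATG8 family, differed by -1.37 ± 0.28 (0.0302), and its vehicle level rose over the same time (0.86, adjusted p = 0.0282). ATOH8, a basic helix-loop-helix factor and BMP target, differed by -1.38 ± 0.28 (0.0317). The zinc finger gene ZNF746 (-1.09 ± 0.21, 0.0265), the kinase gene TESK1 (-0.92 ± 0.19, 0.0413) and the antisense RNA gene ENSG00000235852 (-1.71 ± 0.35, 0.0325), uncertain for the same reason as CERS6-AS1, were the remaining named falls. Of these 7, ABHD4 passed in 15 of the 16 alternatives and lost the call when vehicle 24 h replicate 1 was left out (0.0573). UNKL passed in 12, GABARAPL1, ZNF746 and TESK1 in 8, ATOH8 in 6 and ENSG00000235852 in 5. All of these but ABHD4 lost the call when BaP 12 h replicate 1 or either vehicle 24 h library was left out.

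Promoter windows of 250 bases before the start were taken from RefSeq (GRCh38.p14) for 7 of these 10 genes. The core of the antioxidant response element, TGACNNNGC on either strand, was found in 2 of the 7, GCLM and UNKL, and in 10.9% of 35116 promoter windows of the same length. The window of OSGIN1 held no match. The core of the xenobiotic response element, GCGTG on either strand, was found in 5 of the 7, including OSGIN1, GCLM and UNKL, and in 32.2% of all windows. The GCLM and UNKL windows are shown 5′ to 3′ on the strand of the gene with the antioxidant core in capitals, because GCLM is among the genes whose rise faded. The GCLM window is chr1:93909431-93909680 on the minus strand, and its match lies 34 to 26 bases before the start. The UNKL window is chr16:1379653-1379902 on the minus strand, with the match 86 to 78 bases before the start. In both the antioxidant core reads on the strand opposite to the gene. A match is a description of the letters and not evidence of binding.
GCLM: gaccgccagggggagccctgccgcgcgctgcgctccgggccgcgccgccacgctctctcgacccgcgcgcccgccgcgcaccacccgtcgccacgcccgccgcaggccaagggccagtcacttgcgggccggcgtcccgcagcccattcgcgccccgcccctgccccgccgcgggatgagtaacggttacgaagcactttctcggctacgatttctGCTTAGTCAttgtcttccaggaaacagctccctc
UNKL: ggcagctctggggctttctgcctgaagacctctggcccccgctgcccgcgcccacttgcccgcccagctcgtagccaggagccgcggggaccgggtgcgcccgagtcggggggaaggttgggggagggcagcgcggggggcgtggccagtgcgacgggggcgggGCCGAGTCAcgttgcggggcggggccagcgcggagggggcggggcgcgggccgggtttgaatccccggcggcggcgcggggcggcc

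Late responses were few. SULF2, an extracellular sulfatase that trims heparan sulfate, stood at 161 and 140 CPM in vehicle 12 h, 117 and 132 in BaP 12 h, 118 and 111 in vehicle 24 h, and 198 and 183 in BaP 24 h. BaP libraries were below vehicle at 12 h, where the response did not pass (adjusted p = 0.207), and above it at 24 h. The difference of SULF2 was 1.00 ± 0.17 (adjusted p = 0.00802). PLTP, the phospholipid transfer protein, rose at 24 h (1.22 ± 0.14, adjusted p = 9.73e-05) and not at 12 h (0.29 ± 0.13, 0.225), a difference of 0.92 ± 0.19 (0.0351). AKAP12, an anchor for protein kinase A, differed by 0.89 ± 0.19 (0.0392), and ACSL5, a long-chain acyl-CoA synthetase, by 0.96 ± 0.18 (0.0204). The long non-coding RNA LINC00963 differed by 1.02 ± 0.21 (0.0311). RASGRF2, a guanine nucleotide exchange factor for Ras, was not late by the rule, because it passed at both times. It passed as lower at 12 h (-0.52 ± 0.11, adjusted p = 0.00704) and as higher at 24 h (0.47 ± 0.11, 0.0242). No other gene passed in opposite directions at the 2 times. These 6 genes were singled out after their values were seen. SULF2, PLTP, AKAP12, ACSL5, LINC00963 and RASGRF2 lost the call of the difference when BaP 12 h replicate 1 was left out, and also when vehicle 24 h replicate 2 was. Without BaP 24 h replicate 1 the late class held 168 genes in place of 7.

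Sustained responses included the enzymes for which BaP is best known. CYP1A1 stood at 6.57 and 3.49 CPM in vehicle 12 h, 966 and 1060 in BaP 12 h, 1.61 and 1.5 in vehicle 24 h, and 376 and 306 in BaP 24 h. The level of CYP1A1 with BaP was lower at 24 h than at 12 h (log2 -1.58, adjusted p = 4.5e-05), and so was its level with vehicle (-1.66, 0.0188). The fold change of CYP1A1 was 7.66 ± 0.24 at 12 h and 7.74 ± 0.28 at 24 h, with a difference of 0.08 and a 95% interval of -0.74 to 0.91. The aldo-keto reductase genes AKR1B10, AKR1C1 and AKR1C2 differed by 0.18 (-0.28 to 0.63), 0.01 (-0.57 to 0.58) and -0.01 (-0.63 to 0.61). The quinone reductase NQO1 differed by 0.22 (-0.22 to 0.66). The AKR1C genes are near-identical copies, so their reads may have been divided between them. The p53 targets CDKN1A, an inhibitor of cyclin-dependent kinases, and MDM2, the ligase that degrades p53, differed by -0.15 (-0.59 to 0.29) and -0.18 (-0.59 to 0.22).

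The CYP1A1 window, chr15:74725529-74725778 on the minus strand of GRCh38.p14, is shown as the example of a sustained AHR target. It holds 1 core of the xenobiotic response element, GCGTG, 57 to 53 bases before the start and on the strand of the gene. The share of all windows with that core is the one given above.
CYP1A1: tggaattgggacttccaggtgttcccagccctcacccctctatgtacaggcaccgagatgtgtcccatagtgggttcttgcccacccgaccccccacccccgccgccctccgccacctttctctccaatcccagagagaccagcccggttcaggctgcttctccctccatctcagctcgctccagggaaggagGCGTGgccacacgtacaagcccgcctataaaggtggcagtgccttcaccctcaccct

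Some falls were sustained as well, among them long genes. GPC6, a glypican that spans 1181 kb, stood at 35.0 and 37.0 CPM in vehicle 12 h, 11.2 and 12.7 in BaP 12 h, 34.6 and 33.9 in vehicle 24 h, and 9.004 and 9.90 in BaP 24 h. It was 33.3% of vehicle at 12 h and 28.2% at 24 h, with a difference of -0.24 (-0.70 to 0.22). MYO10, an unconventional myosin of filopodia, differed by 0.10 (-0.41 to 0.61) and SYNE2, a nuclear envelope spectrin-repeat protein, by -0.15 (-0.69 to 0.39). PEG10, an imprinted gene derived from a retrotransposon, stayed at 45.8% and 40.6% of vehicle. Over all 112 sustained falls the median span was 67.3 kb and 7 exceeded 300 kb.

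**Figure D4:**
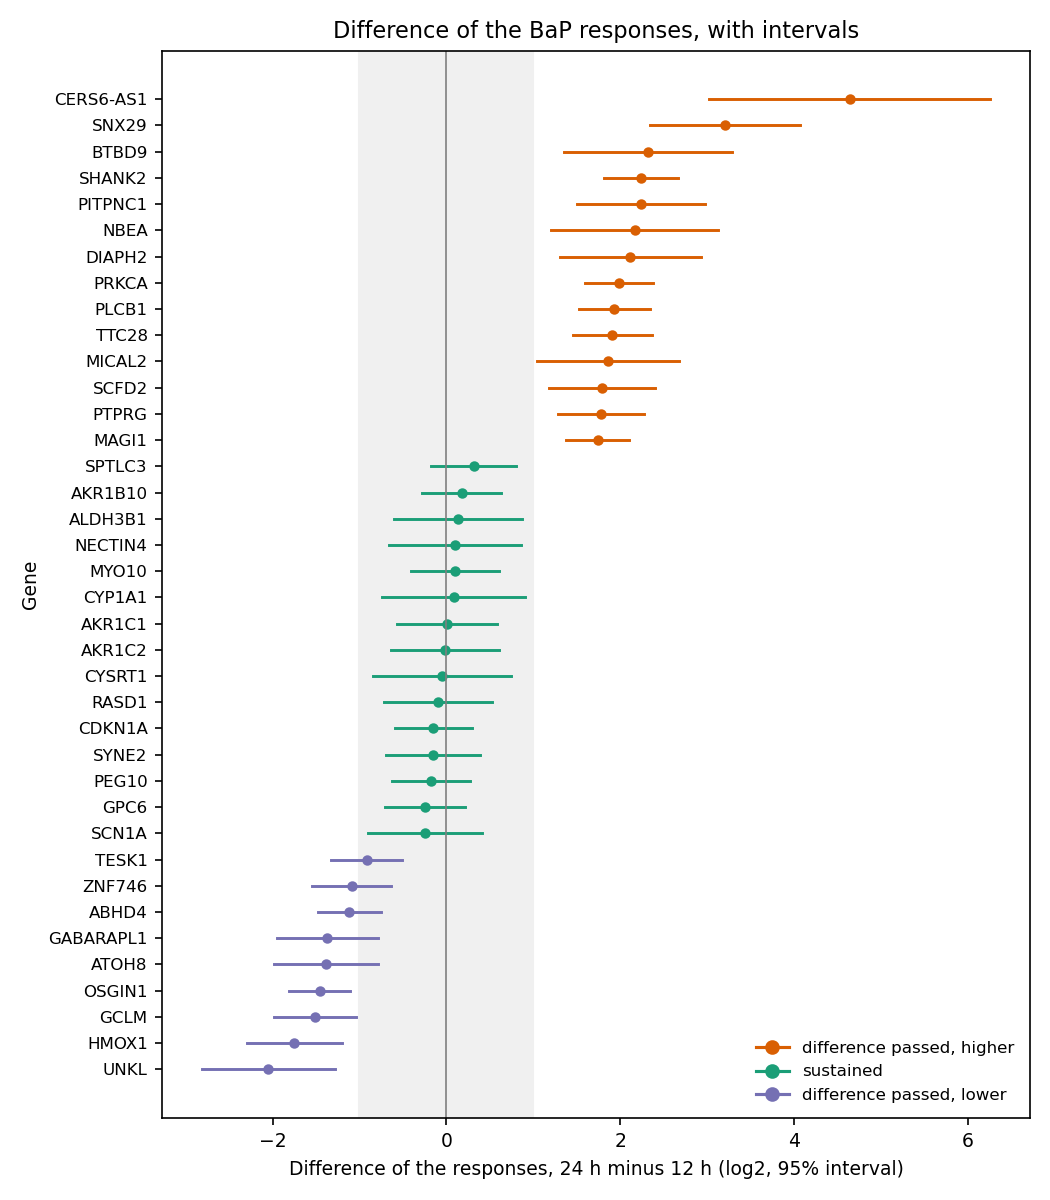
Difference of the responses (24 h minus 12 h, log2, horizontal axis) with its 95% interval for genes named by the rule, n = 2 libraries per group. The genes with a passing difference lie to the right (orange) or left (purple) of 0, and the intervals of sustained genes (green) lie within the grey band of 1 log2 unit on either side of 0.

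The gene lists were described by counts and medians, and no list was tested as a set. Only the lists of NRF2 targets and BMP targets held a passing difference. Of 28 NRF2 targets tested, 20 were higher at 12 h (3.41% of all genes were) and 18 at 24 h (3.11%), and none was lower. Among these 28, 12 were sustained, and the difference passed as lower in 3, OSGIN1, GCLM and HMOX1. SRXN1, also on the list, could not be matched to a gene ID and is not counted here. The NRF2 median went from 0.808 to 0.636, with a median difference of -0.104 against 0.014 over all genes tested. GCLC, the catalytic partner of GCLM, differed by -0.79 (-1.20 to -0.39, adjusted p = 0.0916). Of 43 p53 targets, 32 were higher at 12 h (3.41% of all genes were) and 24 at 24 h (3.11%), with medians of 0.757 and 0.707. Among them 19 were sustained, as were 237 of all 14746 genes tested, and no difference passed. TP53I3, a p53-induced quinone oxidoreductase, had a difference of 0.79 (0.35 to 1.24, adjusted p = 0.135).

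Other lists had medians that stood apart without passing members. Of 16 AHR targets, 7 were higher at 12 h (3.41% of all genes were) and 6 at 24 h (3.11%). Their median difference was -0.365, against 0.014 over all genes tested. Differences were above 0 in 5 members, among them CYP1A1 and NQO1, and below 0 in 11. Members that passed at neither time, such as TIPARP and SLC7A5, are among the 11. The median therefore does not show that the induced members faded. AHRR, the repressor of AHR, stood at 793% of vehicle at 12 h and 223% at 24 h, and its difference of -1.83 (-2.91 to -0.75) did not pass (adjusted p = 0.166). CYP1B1 had 20 and 18 counts in BaP 12 h, 0 and 1 in BaP 24 h, and at most 1 in any vehicle library, so its 24 h response could not be measured. Of 25 genes of cholesterol synthesis, 5 were lower at 12 h (4.84% of all genes were) and 16 at 24 h (2.2%). Their median went from -0.217 to -0.622, and 20 of the 25 differences were below 0. Over all genes tested, 7146 of 14746 differences were below 0. SQLE, the squalene epoxidase, differed by -0.73 (-1.11 to -0.36, adjusted p = 0.0916). Of 25 immediate early genes, 6 were higher at 12 h (3.41% of all genes were) and 1 at 24 h, near the share of all genes (3.11%). Their differences were below 0 in 21, with a median of -0.395. FOS, a subunit of AP-1, differed by -2.20 (-3.37 to -1.04, adjusted p = 0.146). In vehicle culture FOS rose between 12 h and 24 h (3.72 ± 0.37, adjusted p = 0.000673) and it rose in BaP-exposed cells too (1.51 ± 0.35, 0.0156). EGR1, another immediate early factor, also rose in both (2.24 ± 0.17 in vehicle and 1.35 ± 0.17 with BaP). Its difference was -0.89 (adjusted p = 0.159).

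**Figure D5:**
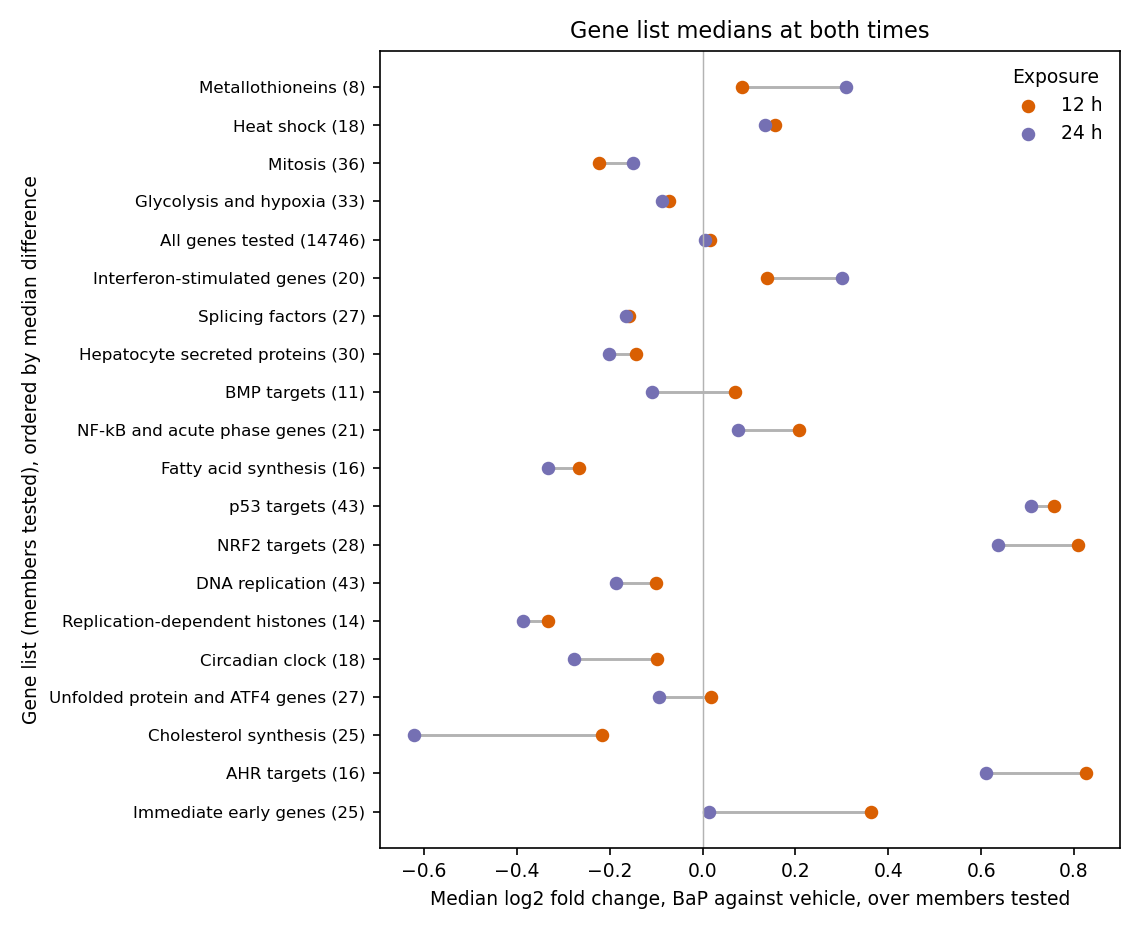
Median log2 fold change of BaP against vehicle at 12 h (orange) and 24 h (purple) for each gene list, with the number of members tested, ordered by the median difference of members. NRF2, p53 and AHR targets lie between 0.61 and 0.83 at both times, and cholesterol synthesis moves from -0.217 to -0.622.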

How the data were processed

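Poly-A RNA from 8 libraries was measured. The deposited estimated counts per gene were made by the authors with Bowtie 0.12.7 and RSEM 1.1.7, per the submitters' processing notes, with annotation of Ensembl release 58 per the names of the deposited files. The genome build and strand setting are not given in the sources used here. RSEM divides reads between genes that share sequence. Counts were rounded, filtered (filterByExpr, minimum count 10, minimum total 15), scaled by TMM and fitted with edgeR 4.0.16 (R 4.3.3) with 1 mean per group. SE is the size of the log2 value divided by the square root of F. Tests were two-sided, checked on simulated data. Floors and intervals cover counting error only where depth is concerned: 3 counts equal 1.16 CPM in BaP 24 h replicate 1 and 0.181 in replicate 2.

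Names were found for 42296 of 49733 gene IDs (85%), holding 96.9% of counts. Spans, mRNA lengths and GC came from GENCODE 29 (93.3% of genes tested). The rule for named genes took the 15 largest rises and falls of the difference (passing, named, mean of at least 5 CPM in a group, same sign in all 16 library choices), the 8 largest sustained genes each way, up to 4 members per list and a fixed set of AHR and p53 targets. The members and lists were chosen with earlier results of these data known. Not every gene chosen in this way is reported here. Alternatives were DESeq2 size factors, no filter, DESeq2 1.42.0, limma-voom 3.58.1, a replicate block, a GC and length correction (mgcv 1.9.3), thinning to 2592234 counts (1 draw) and leaving out each library.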

Additional observations from a re-analysis of the deposited data

Results flagged for a closer look

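The responses at 12 h and 24 h differed by the test of the difference itself (edgeR quasi-likelihood) in the following named genes, given as log2 differences, 24 h minus 12 h. Higher differences were found in CERS6-AS1 (4.64), SNX29 (3.21), BTBD9 (2.32), SHANK2 (2.24), PITPNC1 (2.24), NBEA (2.17), DIAPH2 (2.12), PRKCA (1.99), PLCB1 (1.93), TTC28 (1.91), MICAL2 (1.86), SCFD2 (1.79), PTPRG (1.78) and MAGI1 (1.74). Lower differences were found in UNKL (-2.05), HMOX1 (-1.75), ENSG00000235852 (-1.71), GCLM (-1.51), OSGIN1 (-1.46), ATOH8 (-1.38), GABARAPL1 (-1.37), ABHD4 (-1.12), ZNF746 (-1.09) and TESK1 (-0.92).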

How the results depend on the processing

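With 2 libraries a group, the number of passing genes moved with the setting, and the cause was not tested. Without a filter on low counts the difference passed as higher in 171 and lower in 69 genes, 1238 passed at 24 h and 805 in vehicle culture, and the classes held 128 transient, 29 fading, 59 late and 4 growing genes. DESeq2's Wald test called 800 genes at 12 h, 1650 in BaP-exposed cells over time and 10 fading. The GC and length correction gave 25 lower differences, 782 vehicle genes, 15 late, 372 sustained and 1 growing, and with the replicate block 745 vehicle genes, 11 late and 1 growing. Thinning, which leaves fewer reads and genes, gave 31 higher and 6 lower differences, 596 genes at 12 h, 388 at 24 h, 1307 in BaP-exposed cells, 271 in vehicle, 25 transient, 7 fading, 3 late and 104 sustained. Leaving out 1 library at a time gave 24 to 249 higher and 4 to 99 lower differences, 424 to 1667 genes at 12 h, 169 to 1956 at 24 h, 759 to 3582 in BaP-exposed cells and 87 to 998 in vehicle. The classes then held 22 to 117 transient, 3 to 29 fading, 1 to 168 late, 54 to 407 sustained and 0 to 10 growing genes. The lone library was assumed to vary like the other groups. For genes over 500 kb the median difference of 0.484 ranged from 0.426 to 0.743 over these settings. For as many genes with the longest mRNA, by the median over annotated transcripts, it was -0.12. Correlations of replicate differences between groups were -0.045 to 0.071, so no effect shared by a replicate number was seen. This cannot tell whether equal numbers came from the same experiment. With the replicate block 67 higher and 13 lower differences passed, 64 and 10 of them among the 80 genes above.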
